A study of Mus musculus with 4 samples.

Results

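Foxp3, Ikzf2, Tnfrsf4, Tnfrsf18, Izumo1r, Icos, Ctla4, Il2ra and Cd28 are genes that mark regulatory T cells or encode receptors through which T cells receive costimulation. These 9 genes were taken by name from the 14697 genes of the deposited blood counts and were followed in gated cells among the 14588 cells. Peripheral blood was profiled from C57BL/6 female mice aged 4 months (young) or 24 months (old), with no treatment or transgene named. Each age had 2 samples (young 1, young 2, old 1 and old 2), and by the protocol each sample was blood pooled from 2 mice, so n = 2 per age and single mice cannot be told apart within it. The question asked was how the levels and the joint detection of these genes differed between Cd4 T cells, Cd8 T cells and B cells and between young and old blood.

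T cells were taken as cells with at least 2 unique molecular identifiers (UMIs, 1 per captured transcript) of Cd3d, Cd3e and Cd3g together and none of Cd79a, which gave 2030 cells. Among these, Cd4 T cells had a Cd4 UMI and no Cd8b1 UMI (373 cells) and Cd8 T cells had a Cd8b1 UMI and no Cd4 UMI (568 cells). The Cd4 T cells numbered 178 and 134 in young samples and 36 and 25 in old ones, and the Cd8 T cells 274, 154, 91 and 49. Since a cell can hold Cd4 transcripts without giving a Cd4 UMI, a wider gate of T cells without a Cd8a or Cd8b1 UMI was also used (595, 545, 131 and 116 cells). B cells had at least 2 UMIs of Cd79a and none of the Cd3 genes (1880, 1900, 3470 and 1464 cells). Monocytes, gated by Lyz2 and Csf1r (66, 94, 200 and 156 cells), served as cells that should lack T cell genes.

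Foxp3 is the transcription factor that defines regulatory T cells, the Cd4 T cells that restrain immune responses, and Ikzf2 (Helios) is a transcription factor found in many of them. Cd28 and Icos deliver costimulatory signals, Ctla4 binds the same ligands as Cd28 and dampens the response, and Tnfrsf4 (OX40) and Tnfrsf18 (GITR) are costimulatory receptors of the tumor necrosis factor receptor family. Il2ra (CD25) is the chain that gives the interleukin 2 receptor its high affinity, and Izumo1r is folate receptor 4, a surface protein of regulatory and other Cd4 T cells.

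The median cell held 2332 and 2233 UMIs in young samples and 3186.5 and 3482 in old ones. In Cd4 T cells the medians were close to each other (2822, 2675.5, 2416.5 and 2592), while in B cells they were 2077 and 2063 against 3191.5 and 3162. Levels are therefore given per 1000000 UMIs (CPM) of the gated cells of a sample. Shares of cells with a UMI are given with shares after thinning each cell to 1000 UMIs where depths differed. Any pair of samples shared 11 to 24 cell barcodes, at most 0.777% of the smaller sample. Transcripts of platelets were seen mainly in the old samples. The summed level of 4 platelet markers (Ppbp, Pf4, Gng11 and Itga2b) was 2.05 and 0 CPM in young and 658 and 201 CPM in old Cd4 T cells, and 0.611, 18.3, 560 and 406 CPM in B cells. The part of these transcripts in the results was not tested. The values called with age for Ikzf2, Tnfrsf4, Ctla4 and Cd28 are also given without the cells that held a Ppbp or Pf4 UMI. The same holds for the age by lineage term of Ikzf2, while other age values are given with those cells only. Leaving them out removed 2 and 22 B cells from the young samples and 1508 and 490 from the old ones. A summed level cannot tell a change in the number of cells that express a gene from a change in each cell.

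On the mouse genome build GRCm38, several of the genes lie side by side. Cd28 (chr1:60716800-60773359), Ctla4 (chr1:60887000-60915832) and Icos (chr1:60977927-61000320) follow each other on the plus strand, with gaps of 113640 and 62094 bases that hold 0 protein-coding genes. Tnfrsf4 (chr4:156013843-156016612) and Tnfrsf18 (chr4:156026164-156028895) are 9551 bases apart, also on the plus strand. Ikzf2 (chr1:69531214-69687245) and Izumo1r (chr9:14885814-14903949) are on the minus strand, and Il2ra (chr2:11642807-11693193) and Foxp3 (chrX:7573644-7595245) on the plus strand. Foxp3 overlaps 4 annotated genes, among them Ppp1r3f, Ccdc22 and Flicr, and Ikzf2, Tnfrsf18, Icos, Ctla4 and Il2ra also overlap annotated genes. Genes on the other strand overlap Foxp3, Ikzf2 and Tnfrsf18, and no source used here says whether the counting was strand-specific. For Icos, Ctla4 and Il2ra the overlapping genes lie on the same strand, which strand-specific counting would not tell apart. UMIs of these 6 genes are uncertain to that extent.

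The promoters of Foxp3, Ctla4 and Tnfrsf4 are shown because these genes carry the results on Foxp3-positive T cells, on B cells and on age. RefSeq (GRCm38.p6) gave windows of 300 bases, from 250 bases before to 50 after a transcription start, for 6 of the 9 genes. They were searched on both strands for TATAAA, which helps to place the start of transcription, and for TTCNNNGAA, the core that STAT factors bind. Matches are in capitals. The former occurred in 13.6% of 32851 windows and the latter in 8.30%. No matches overlapped, and a match is a description of letters only. The windows are Foxp3 chrX:7579426-7579725, Ctla4 chr1:60908775-60909074 and Tnfrsf4 chr4:156013445-156013744, all on the plus strand.
Foxp3: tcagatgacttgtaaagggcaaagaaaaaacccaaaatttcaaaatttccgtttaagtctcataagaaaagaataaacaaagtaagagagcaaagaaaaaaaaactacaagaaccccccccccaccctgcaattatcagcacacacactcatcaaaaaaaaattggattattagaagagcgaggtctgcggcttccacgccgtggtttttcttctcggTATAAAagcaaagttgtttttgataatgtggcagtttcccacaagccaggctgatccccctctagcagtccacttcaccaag
Ctla4: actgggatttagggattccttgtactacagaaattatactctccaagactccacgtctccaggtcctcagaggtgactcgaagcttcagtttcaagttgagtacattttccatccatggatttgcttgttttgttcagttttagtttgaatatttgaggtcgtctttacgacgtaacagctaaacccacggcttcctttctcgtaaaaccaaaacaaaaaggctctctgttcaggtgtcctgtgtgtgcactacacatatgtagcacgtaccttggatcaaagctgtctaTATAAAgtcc
Tnfrsf4: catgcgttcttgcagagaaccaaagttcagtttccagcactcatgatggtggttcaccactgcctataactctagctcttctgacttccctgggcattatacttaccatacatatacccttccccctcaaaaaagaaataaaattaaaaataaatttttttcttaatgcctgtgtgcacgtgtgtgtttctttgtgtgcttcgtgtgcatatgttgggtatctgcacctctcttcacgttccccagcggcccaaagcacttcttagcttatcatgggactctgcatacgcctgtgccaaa
TATAAA stood 32 bases before the start of Foxp3 and 40 bases after that of Ctla4, and Tnfrsf4 held neither motif. TTCNNNGAA was found 99 bases before the start of Tnfrsf18 and 139 bases before the start in a second Foxp3 window (chrX:7580233-7580532). The windows of Il2ra and Izumo1r held neither. Ikzf2, Icos and Cd28 are named only.

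In both ages, Cd28 was the most abundant of the 9 transcripts in Cd4 T cells and Foxp3 and Il2ra were among the scarcest. Izumo1r, Icos and above all Tnfrsf4 were higher in Cd4 T cells than in Cd8 T cells, while Tnfrsf18 and Cd28 differed less. Cd28 stood at 414 and 347 CPM in young and 367 and 417 CPM in old Cd4 T cells, against 173, 160, 185 and 241 CPM in Cd8 T cells. All 4 values in Cd4 T cells were above all 4 in Cd8 T cells. Levels of different genes are compared here as 3′ UMIs, which count 1 tag a transcript and do not depend on gene length.

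Izumo1r showed a wider gap, with 201, 150, 216 and 302 CPM in Cd4 T cells and 37.3, 31.3, 0 and 33.6 CPM in Cd8 T cells. Tnfrsf4 stood at 43.0, 34.7, 141 and 216 CPM in Cd4 T cells and at 3.29, 1.74, 0 and 11.2 CPM in Cd8 T cells, where it rested on few UMIs. Icos reached 86.1, 58.8, 160 and 158 CPM in Cd4 T cells against 25.2, 26.1, 37.1 and 28.0 CPM. The ranges of these 3 genes did not overlap between the gates, nor did those of Cd28, Ikzf2 and Tnfrsf18. The share of all genes with ranges apart was not counted.

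Ikzf2 lay close together in the gates of young blood (102 and 74.8 CPM in Cd4 T cells against 65.8 and 69.6 CPM in Cd8 T cells) and far apart in old blood (245 and 316 against 33.7 and 50.4 CPM). Tnfrsf18 stood at 137, 115, 179 and 259 CPM in Cd4 T cells and at 56.0, 76.5, 101 and 95.1 CPM in Cd8 T cells. Ctla4 was low in both gates, with 16.4, 16.0, 28.2 and 28.8 CPM in Cd4 T cells and 7.68, 6.96, 16.9 and 11.2 CPM in Cd8 T cells. Foxp3 gave 14 UMIs in Cd4 T cells (6.15, 24.0, 0 and 28.8 CPM) and 3 UMIs in Cd8 T cells, all in young 1. Il2ra gave 17 UMIs in Cd4 T cells (10.2, 26.7, 18.8 and 0 CPM). Both were under the limit of 20 UMIs used for the tests in this gate.

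**Figure D1:**
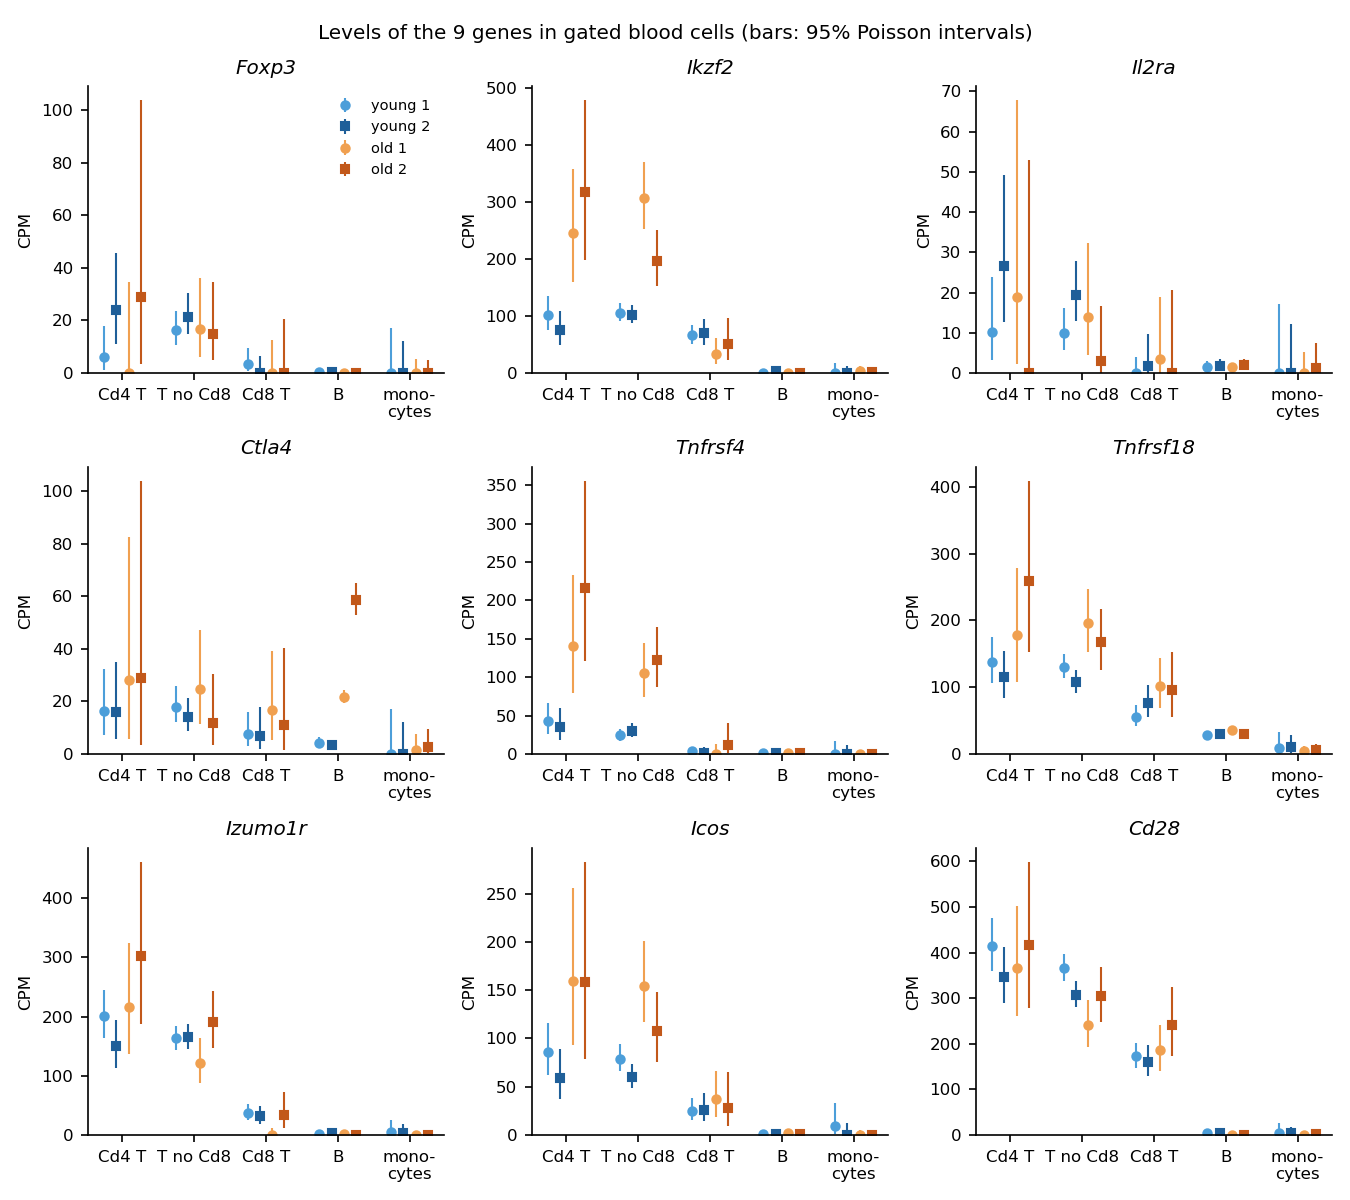
Level of each of the 9 genes in CPM (a linear axis of its own for each gene) in Cd4 T cells, T cells without Cd8, Cd8 T cells, B cells and monocytes of the 4 samples, with 95% Poisson intervals for counting error. Old samples lie above young ones for Ikzf2 and Tnfrsf4 in the first 2 gates, and Ctla4 in B cells goes from 4.07 and 3.32 CPM in young to 21.7 and 58.6 CPM in old samples.

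The UMIs of each sample were summed per gate and the sums of the 4 samples compared by edgeR's quasi-likelihood test with the sample as a block and Benjamini-Hochberg adjustment over all genes tested. Of the 7 genes tested, 6 were higher in Cd4 T cells, and the share of all 7669 genes called higher was 1.26% (3.34% in either direction). The log2 fold change between Cd4 and Cd8 T cells was 4.17 (SE 0.48) for Tnfrsf4, with adjusted p = 7.91e-16. It was 2.58 (SE 0.22) for Izumo1r (adjusted p = 8.45e-28) and 1.59 (SE 0.27) for Icos (adjusted p = 6.54e-07).

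Smaller differences were called for Ikzf2 (0.95, SE 0.21, adjusted p = 5.37e-04), Cd28 (0.93, SE 0.15, adjusted p = 5.09e-08) and Tnfrsf18 (0.84, SE 0.20, adjusted p = 0.00127). Ctla4 gave 0.88 (SE 0.56, adjusted p = 0.644), which leaves a difference of either sign possible. Ikzf2 was not called without old 1 (adjusted p = 0.141) or without old 2 (0.248), and Tnfrsf18 was not called without young 1 (0.228). Among 21 other genes of regulatory T cells, Nrp1 (2.11), Capg (1.72) and Gata3 (0.91) were higher in Cd4 T cells and Tnfrsf9, Lag3 and Itgae lower. Cd40lg, the ligand by which helper T cells activate B cells, was higher by 3.73 on the log2 scale, and Tnfrsf25 (1.21), Slamf6 (1.06) and Cd5 (1.03) were higher as well. None of the 21 genes of Cd28 and T cell receptor signaling was called. Natural killer cell markers were lower in Cd4 than in Cd8 T cells (4 of 5 tested, median -2.69), namely Klre1, Eomes, Nkg7 (-2.69) and Gzma (-2.58), and their part in the result was not tested.

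With age, Ikzf2 and Tnfrsf4 rose in Cd4 T cells and in T cells without a Cd8 UMI, and the other members did not pass the test. The latter gate can also hold Cd8 T cells whose Cd8 transcripts gave no UMI. In the larger gate of T cells without Cd8, Tnfrsf4 stood at 24.3 and 30.1 CPM in young samples and 105 and 122 CPM in old ones. Ikzf2 stood at 106 and 102 CPM in young samples and 307 and 197 CPM in old ones. Both old samples were above both young ones for each gene. In the same cells Foxp3 stood at 16.2, 21.4, 16.6 and 14.9 CPM, so that the ages overlapped.

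In Cd4 T cells, gated with a Cd4 UMI, the same 2 genes were called. Of the 6 members tested there, 2 rose with age, where 1.47% of all 4765 genes were called higher and 2.29% in either direction. Ikzf2 rose, with a log2 fold change of 1.44 and SE of 0.30 (adjusted p = 5.21e-04, edgeR), and Tnfrsf4 by 1.95 (SE 0.41, adjusted p = 5.57e-04). Without the cells holding a Ppbp or Pf4 UMI the values were 1.70 (adjusted p = 1.29e-04) and 2.43 (7.68e-06). After thinning each cell, Tnfrsf4 was called and Ikzf2 was not. Neither was called by DESeq2 (adjusted p = 0.106 for Ikzf2 and 0.0845 for Tnfrsf4) or without old 2 (0.0594 and 0.0768).

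In T cells without Cd8 all 9 members could be tested, and again Ikzf2 (1.16, SE 0.19, adjusted p = 0.00268) and Tnfrsf4 (1.94, SE 0.24, adjusted p = 1.65e-04) were called. Here 1.88% of 8276 genes were called higher and 2.92% in either direction. Both genes were also called by DESeq2 (adjusted p = 0.00706 and 5.17e-04) and without any one of the 4 samples, with log2 fold changes of 0.83 to 1.42 for Ikzf2 and 1.73 to 2.16 for Tnfrsf4. Of markers of other cells in this gate, 2 of 6 natural killer cell markers, Gzma (0.98) and Nkg7 (0.73), and all 3 platelet markers tested were higher, and the T cell gene Bcl11b (-0.95) was lower. The natural killer list summed to 983 and 808 CPM in young samples and 1644 and 1565 CPM in old ones, and its part in the result was not tested. Without Ppbp or Pf4 cells the changes of Ikzf2 and Tnfrsf4 were 1.25 (adjusted p = 0.00225) and 2.39 (1.61e-05). Cells with a UMI of Csn2, a milk casein gene seen in T cells of old 1 alone (4 of its 36 Cd4 T cells and 9 of its 131 T cells without Cd8), were also left out of the Cd4 T cells. The values were then 1.37 (adjusted p = 0.0421) for Ikzf2 and 2.03 (0.0157) for Tnfrsf4.

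The shares of cells moved with the levels. In T cells without Cd8, an Ikzf2 UMI was held by 11.4% and 13.2% of cells in young samples and by 38.2% and 25.0% in old ones (8.91%, 7.16%, 23.7% and 18.1% after thinning). Tnfrsf4 was detected in 4.54%, 5.50%, 13.0% and 17.2% of these cells (2.35%, 2.02%, 7.63% and 12.1% after thinning). In monocytes Tnfrsf4 and Foxp3 had 0 UMIs in all 4 samples. Foxp3 was detected in 3.19%, 4.04%, 4.58% and 4.31% of T cells without Cd8, a difference that was not detectable at this depth.

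Icos stood at 79.1 and 60.2 CPM in young and 155 and 107 CPM in old T cells without Cd8, and both old samples were above both young ones. Its log2 fold change was 0.80 (adjusted p = 0.0634), and it was called without old 2 (1.01, adjusted p = 0.00158) and without young 1 (0.94, adjusted p = 0.0447). Tnfrsf18 stood at 130, 107, 196 and 167 CPM, again without overlap, with a log2 fold change of 0.50 (adjusted p = 0.176). Cd28 stood at 366, 308, 240 and 304 CPM (-0.42, adjusted p = 0.198) and was called lower without old 2 (-0.62, adjusted p = 0.00508).

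The scarcer members had wide errors. Foxp3 gave -0.37 (SE 0.47, adjusted p = 0.804), Ctla4 0.09 (adjusted p = 0.961), Il2ra -0.87 (adjusted p = 0.635) and Izumo1r -0.20 (adjusted p = 0.734). Ctla4 stood at 18.1, 14.1, 24.9 and 11.9 CPM and Il2ra at 9.96, 19.4, 13.8 and 2.98 CPM, with overlap between the ages. In simulated counts of the Cd4 T cell comparison (4488 genes), 11.6% of 2-fold and 55.9% of 4-fold changes were recovered, so moderate changes could be missed there. Age in T cells without Cd8, from which the values above come, was not simulated.

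In Cd4 T cells, 6 of the 9 members had thinned shares that did not overlap between the ages. The share was 39.3% over the 4765 genes that passed the filter for testing. Foxp3, Il2ra and Ctla4 did not pass that filter, so the 2 values cover unlike sets of genes. Ikzf2 (5.06%, 6.72%, 16.7% and 28.0%), Tnfrsf4 (3.37%, 2.99%, 13.9% and 24.0%) and Tnfrsf18 (12.9%, 9.70%, 13.9% and 24.0%) were above in old blood, and Foxp3, Il2ra and Cd28 below. For Foxp3, Il2ra and Cd28 this held only after thinning, and without it their shares overlapped. Without thinning, Foxp3 was found in 2, 6, 0 and 2 cells, with the highest share in old 2 (1.12%, 4.48%, 0% and 8.00%). Il2ra was found in 2, 8, 2 and 0 and Cd28 in 108, 76, 16 and 20 of the 178, 134, 36 and 25 cells. With 2 against 2 samples the exact permutation test cannot give a two-sided p below 0.33. The number of members found in 1 cell also differed. At least 4 of the 9 were detected in 5.62% and 5.22% of Cd4 T cells from young samples, against 16.7% and 28.0% from old ones (10, 7, 6 and 7 cells), and the most in any cell was 9, in young 2.

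Among other genes, those of memory or activated T cells rose in old Cd4 T cells (10 of 19 tested, none lower), with S100a4 at 2.78, S100a6 at 2.22, Ly6a at 2.12 and S100a11 at 1.62 on the log2 scale. Naive T cell genes fell (4 of 10 tested, none higher), among them Dapl1 (-3.23), Satb1 (-1.80) and Lef1 (-1.14). Of the 21 other regulatory T cell genes 8 were tested and 2 rose. These were Nrp1 (45.1 and 21.4 CPM in young, 141 and 101 CPM in old samples, log2 fold change 1.68) and Capg (135, 69.4, 433 and 230 CPM, 1.56).

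Of 14 other costimulatory and coinhibitory receptors tested, Slamf6 rose (0.80). Of 7 genes of interleukin 2 reception and signaling, Socs1, which restrains cytokine signaling, rose (1.48). None of 19 genes of Cd28 and T cell receptor signaling was called in this comparison, and none of the 6 ligand genes passed the filter. Of markers of other cells, all 3 platelet markers tested and the monocyte gene Lyz2 (1 of 3 tested) were higher while the haemoglobin gene Hbb-bt (1 of 5) and the natural killer cell gene Gzma (1 of 3) were lower, and their part in the result was not tested.

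In Cd8 T cells none of the 5 members tested was called with age, where 1.33% of 6411 genes were called. Over all genes 638 had an unadjusted p below 0.05 and DESeq2 called 30, with none of the members among them. Ikzf2 stood at 65.8 and 69.6 CPM in young and 33.7 and 50.4 CPM in old Cd8 T cells, with both old samples below (log2 fold change -0.77, SE 0.35, adjusted p = 0.447). Tnfrsf18 stood at 56.0 and 76.5 against 101 and 95.1 CPM (0.57, SE 0.29, adjusted p = 0.535). Cd28 gave 0.30 (SE 0.22, adjusted p = 0.731), Icos 0.35 (SE 0.45, adjusted p = 0.885) and Izumo1r -1.44 (SE 0.67, adjusted p = 0.478).

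Izumo1r was called in Cd8 T cells without old 2 (adjusted p = 0.00283), since old 1 held none of its UMIs there. In Cd8 T cells, too, memory genes rose with age (14 of 20) and naive genes fell (5). None of 11 other regulatory T cell genes, 17 costimulatory receptors, 9 interleukin 2 genes or 21 signaling genes was called.

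The age change of Ikzf2 differed between the gates. The age by lineage term of 1 model over both gates was 2.10 on the log2 scale (SE 0.47, adjusted p = 0.0053), the only member called among 7 tested, where 0.287% of 7669 genes were called. It was not called by DESeq2 (adjusted p = 0.999), without the sample block (0.0741), without Ppbp or Pf4 cells (1.91, 0.0654), or without young 2, old 1 or old 2 (0.301, 0.218 and 0.0584). Nor was it called after thinning (2.94, 0.403) or without the deepest cells (1.88, 0.0565). The term was positive under all 15 alternatives, from 1.88 to 2.94, and 7 of them called it.

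**Figure D2:**
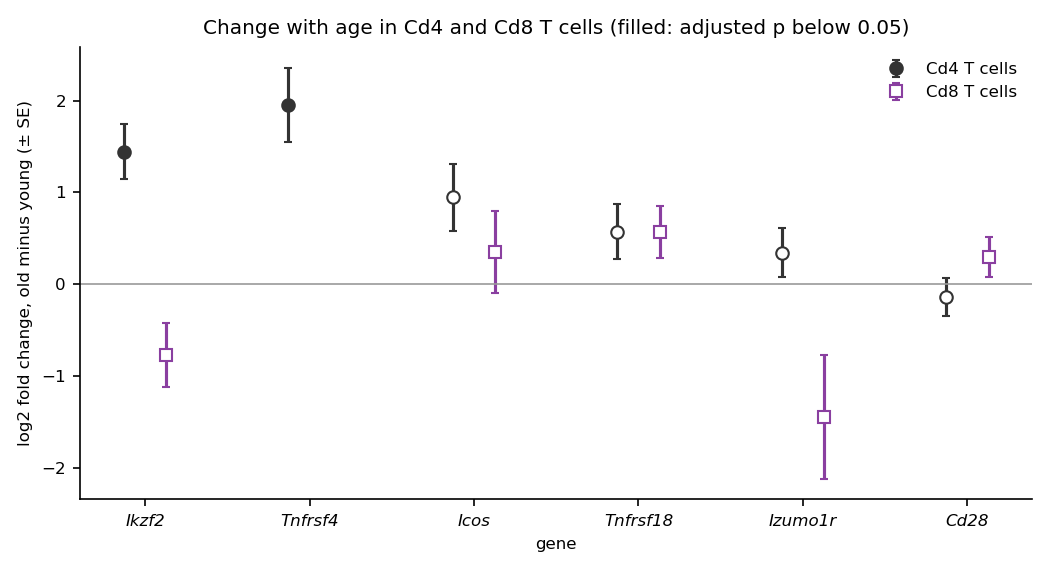
Log2 fold change (old over young) with its standard error for each member tested in Cd4 T cells (circles) and Cd8 T cells (squares), with filled points at adjusted p below 0.05 (edgeR). Ikzf2 (1.44) and Tnfrsf4 (1.95) are filled in Cd4 T cells, Ikzf2 lies at -0.77 in Cd8 T cells, and Tnfrsf4 was not tested there.

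Cells with a Foxp3 UMI more often held UMIs of most other members. With a Cd4 UMI asked for, there were 2, 6, 0 and 2 Foxp3-positive cells, and none of 6 members was called in these 3 samples (11 of 4394 genes, 0.25%, with 357 at an unadjusted p below 0.05 and 9 called by DESeq2). T cells without Cd8 held 19, 22, 6 and 5 Foxp3-positive cells, 52 in all, of which 10 had a Cd4 UMI. They were deeper than the 1335 Foxp3-negative cells in 3 samples and about as deep in young 2, with median UMIs of 2935, 2604.5, 2917.5 and 2959 against 2603.5, 2604, 2261 and 2569.

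Ikzf2 was detected in 71.2% of Foxp3-positive cells (95% exact binomial interval 56.9 to 82.9%) and in 13.6% of negative cells. By sample these were 14 of 19, 14 of 22, 4 of 6 and 5 of 5 positive cells. Tnfrsf4 was detected in 42.3% (28.7 to 56.8%) against 5.39%, Ctla4 in 30.8% (18.7 to 45.1%) against 2.92%, and Il2ra in 19.2% (9.63 to 32.5%) against 2.02%. Among Foxp3-negative cells the last 3 of these genes were rarer than Ikzf2.

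Tnfrsf18 and Izumo1r were each detected in 59.6% of positive cells, against 25.3% and 23.1% of negative cells. Icos was found in 34.6% against 16.0%, and Cd28 in 53.8% against 52.4%. The share of Cd28 in the negative cells lay within the counting interval of the positive cells. Among the 29 positive cells left after thinning, the order was the same for Ikzf2 (41.4% against 9.72%), Tnfrsf4 (20.7% against 3.17%), Ctla4 (17.2% against 1.62%) and Il2ra (10.3% against 0.81%), and Cd28 stood at 17.2% against 27.8%.

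**Figure D3:**
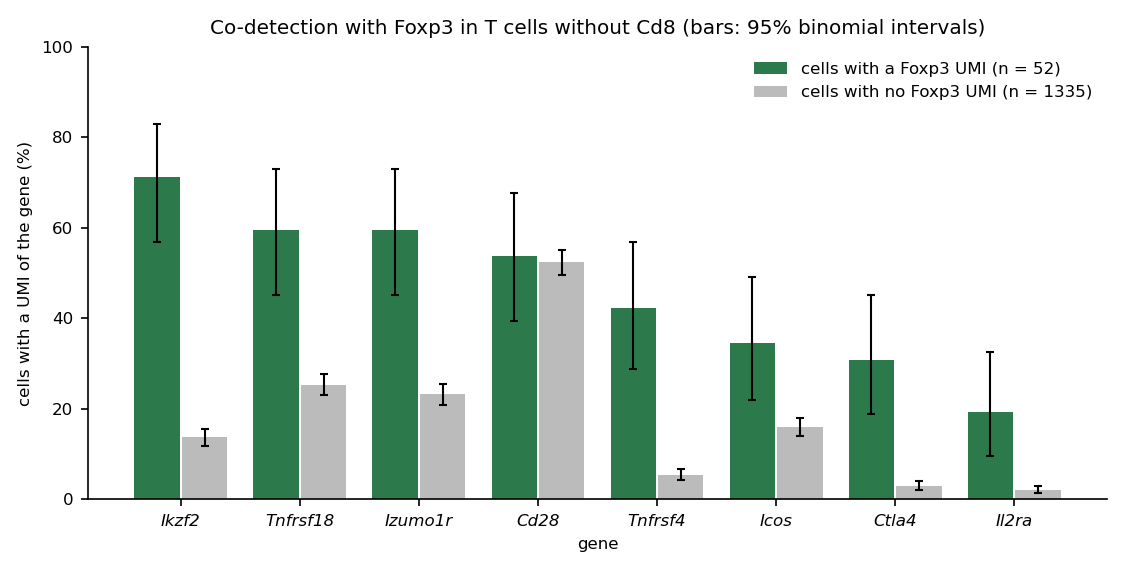
Percent of Foxp3-positive and Foxp3-negative T cells without Cd8 with a UMI of each other member, with 95% exact binomial intervals over 52 and 1335 cells. The shares of Ikzf2 are 71.2% and 13.6%, and those of Cd28 are 53.8% and 52.4%.

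On sums per sample with the sample as a block, 6 of the 8 members other than Foxp3 were higher in Foxp3-positive cells, where 0.326% of 8270 genes were called higher and 1.86% lower (2.19% in either direction). The log2 fold change was 3.26 (SE 0.59) for Il2ra, 2.92 (SE 0.54) for Ctla4, 2.61 (SE 0.34) for Tnfrsf4 and 2.22 (SE 0.23) for Ikzf2, with adjusted p = 9.91e-06, 2.18e-05, 2.56e-11 and 3.50e-19 by edgeR. Izumo1r gave 1.53 (SE 0.24, adjusted p = 1.55e-07) and Tnfrsf18 1.19 (SE 0.27, adjusted p = 0.00152). Icos (0.81, adjusted p = 0.346) and Cd28 (-0.63, adjusted p = 0.337) were not called, and the median of all genes was -0.41.

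Il2ra was not called without young 2 (1.42, adjusted p = 0.767), which held 7 of the 10 cells positive for both genes. Ctla4 was not called without young 1 (adjusted p = 0.0893) or young 2 (0.118), and Tnfrsf18 not without young 1 (0.127). DESeq2 called 3 members, Ikzf2, Tnfrsf4 and Izumo1r. A gate with at least 1 Cd3 UMI and up to 1 Cd79a UMI also gave 6 members, beside 2.26% of 9129 genes.

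The genes that were no members and stood highest in Foxp3-positive cells were Ikzf4 (Eos, 3.40), Trib1 (2.65), Agpat4 (2.42), Klrg1 (2.20) and Nrp1 (2.13). They rested on few transcripts, since Ikzf4 had 11 UMIs in 8 of the 52 cells against 16 UMIs in 15 of 1335, and Nrp1 27 UMIs in 20 cells. Capg was higher by 1.63. Dapl1, Slpi, Klrk1, Xcl1 and Klrb1c were at 0 UMIs in the 52 cells. Dapl1 had 897 UMIs in 336 of the 1335 Foxp3-negative cells. Among naive T cell genes, Actn1 (-3.10), Igfbp4 (-2.98) and the interleukin 7 receptor gene Il7r (-1.78) were lower. Red cell markers (4 of 5) and natural killer cell markers (4 of 6) were lower too, and their part in the result was not tested.

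Within Foxp3-positive cells the old samples were few. Icos was detected in 6 of 19 and 3 of 22 young and in 4 of 6 and 5 of 5 old cells, and Tnfrsf4 in 7 of 19, 7 of 22, 5 of 6 and 3 of 5. Ctla4 was detected in 7 of 19, 8 of 22, 1 of 6 and 0 of 5. Both old shares lay above both young ones for Icos and Tnfrsf4 and below them for Ctla4, and the 11 old cells are too few for more than a description.

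Most Ikzf2-positive cells held no Foxp3 UMI. A cell with no Foxp3 UMI can still express Foxp3. Cells with Ikzf2 and no Foxp3 UMI numbered 54 of 68 and 58 of 72 Ikzf2-positive T cells without Cd8 in young samples. In old samples they numbered 46 of 50 and 24 of 29. Dapl1 was found in 2, 4, 0 and 0 of them, and in 33.1%, 31.2%, 5.06% and 9.20% of the cells with neither Ikzf2 nor Foxp3.

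S100a6 was detected in 51.9%, 41.4%, 93.5% and 83.3% of the cells with Ikzf2 and no Foxp3, against 25.9%, 28.8%, 84.8% and 73.6% of the cells with neither. The cytotoxic granule gene Nkg7 was found in 61.1%, 46.6%, 34.8% and 29.2% of the former and in 28.4%, 32.9%, 57.0% and 34.5% of the latter, which was the lower share in both young samples and the higher in both old ones. It was found in 1 of the 52 Foxp3-positive cells. Tnfrsf4 was found in 13.0%, 15.5%, 13.0% and 16.7% of the cells with Ikzf2 and no Foxp3, so that the ages overlapped, and in 2.49%, 3.01%, 7.59% and 14.9% of the cells with neither. Dapl1, S100a6 and Nkg7 were chosen for these shares after their values had been seen.

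In the B cell gate, Ctla4 rose with age, and Cd28, at 18, 18, 9 and 3 UMIs, was called lower. Tnfrsf18 was present at a similar level in all samples. B cells held 20 and 16 Ctla4 UMIs in young samples and 305 and 357 in old ones, which is 4.07, 3.32, 21.7 and 58.6 CPM. The cells with a Ctla4 UMI were 16 of 1880 (0.851%), 15 of 1900 (0.789%), 249 of 3470 (7.18%) and 232 of 1464 (15.8%), and after thinning 0.16%, 0.211%, 1.87% and 4.03%. In monocytes of the old samples, at medians of 3189.5 and 4499.5 UMIs, 1 of 200 (0.500%) and 2 of 156 cells (1.28%) held a Ctla4 UMI, and 0 in the young samples.

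The log2 fold change of Ctla4 was 3.51 (SE 0.59, adjusted p = 0.0306, edgeR), and both old samples were far above both young ones. Of the 4 members tested in B cells 2 were called, beside 5.26% of 9882 genes (3.71% higher, 1.55% lower). DESeq2 gave adjusted p = 1.56e-09 for Ctla4. Of markers of other cells, the monocyte genes Ms4a6c (2.00) and Ccr2 (1.95), 2 of 6 tested, rose in B cells with age, as did all 4 platelet markers. The monocyte list summed to 284, 718, 1254 and 1459 CPM there. The natural killer cell genes Gzma (-1.87) and Nkg7 (-1.71), 2 of 5 tested, fell, and the part of these cells in the result was not tested. The gene was not called without young 1 (adjusted p = 0.163) or without young 2 (0.0802), at log2 fold changes of 3.61 and 3.43. Without the cells holding Ppbp or Pf4 it gave 3.24 (adjusted p = 0.0349). Without the cells holding Adm, the gene of adrenomedullin, whose 334 B cells of old 1 held 118 of that sample's Ctla4 UMIs, it gave 3.68 (adjusted p = 0.0501). Without the deepest B cells, above the 95th percentile of each sample, it gave 4.06 (adjusted p = 0.0103).

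Cd28 stood at 3.67 and 3.73 CPM in young and 0.641 and 0.493 CPM in old B cells (18, 18, 9 and 3 UMIs), a log2 difference of -2.56 (SE 0.43, adjusted p = 0.0326). DESeq2 gave adjusted p = 0.0502, and without Ppbp or Pf4 cells edgeR gave 0.0543. Monocytes, taken to lack the gene, held it at 4.63, 3.33, 0 and 1.32 CPM on 1, 1, 0 and 1 UMIs. The level in B cells was below theirs in young 1 and old 2 and above it in young 2 and old 1. In B cells Cd28 stood at 1.25%, 1.41%, 0.299% and 0.175% of its level in all T cells. The T cell genes Cd4, Cd8b1, Lck, Thy1, Bcl11b and Ms4a4b were also lower in both old samples of B cells. Bcl11b, for example, stood at 3.05, 1.87, 0.427 and 0.164 CPM. The share of T cells among all cells was 23.2% and 18.9% in young samples and 4.85% and 7.82% in old ones. The part of T cell RNA in the fall of Cd28 was not tested. Tnfrsf18 stood at 28.3, 29.3, 36.2 and 30.5 CPM in B cells (log2 fold change 0.29, SE 0.15, adjusted p = 0.308) and at 4.18 to 10.0 CPM in monocytes. Izumo1r gave -1.81 (SE 0.73, adjusted p = 0.211), and the other members were at or below 4.15 CPM in B cells.

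Ctla4 was unevenly spread among B cells. In B cells with an Fcer2a UMI (the follicular B cell receptor CD23) and no S100a6 UMI it was near 0 in all samples (1, 2, 1 and 2 UMIs). In B cells with S100a6 and no Fcer2a it stood at 10.4 and 10.0 CPM in young samples and 26.7 and 76.6 CPM in old ones, which was 11, 9, 289 and 276 UMIs. In old 2 it was also found at 51.7 CPM in B cells with both and at 38.9 CPM in those with neither, against 2.85 and 10.1 CPM in old 1. The cells with a UMI were 2.43%, 3.59%, 10.2% and 25.7% of these cells, and 0.347%, 0.797%, 2.58% and 6.94% after thinning.

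Between these B cells, in a comparison chosen after the data had been seen, Ctla4 was higher by 4.08 on the log2 scale in those with S100a6 (SE 0.36, adjusted p = 1.66e-07, with 16.5% of 9856 genes called). Tnfrsf18 differed by 0.63 (SE 0.18, adjusted p = 0.0161, and 0.193 by DESeq2). Within the B cells with S100a6 and no Fcer2a, the age change of Ctla4 was 2.37 (SE 0.61, adjusted p = 0.209, with 0.281% of 9979 genes called). DESeq2 called it (adjusted p = 0.0148), and leaving out 1 sample at a time gave 1.38 to 2.98, with adjusted p from 7.0e-05 to 0.474. The lowest value, 1.38, was without old 2.

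**Figure D4:**
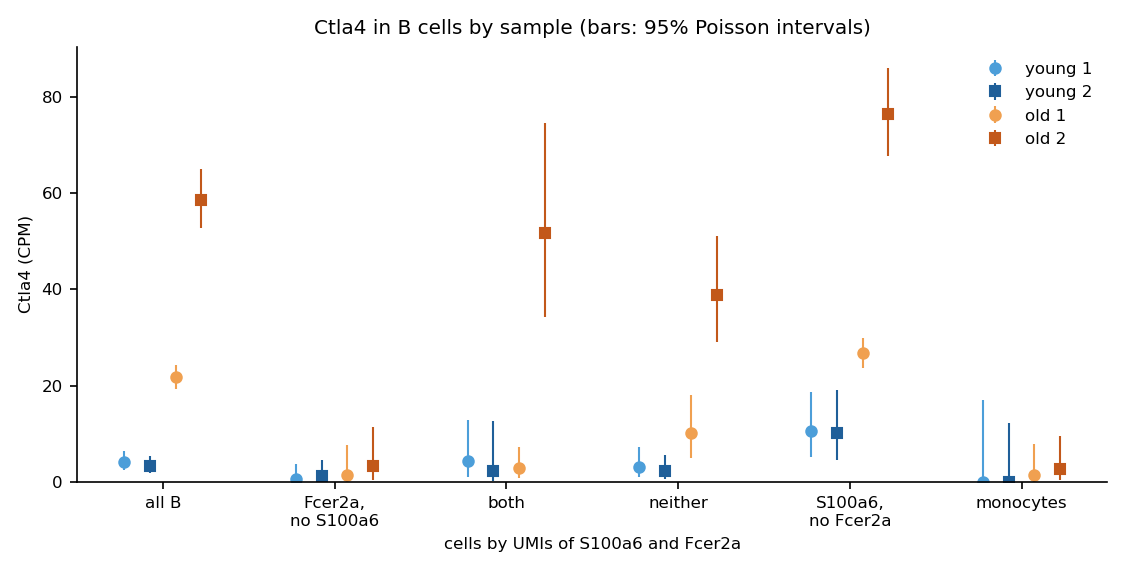
Ctla4 in CPM in all B cells, in B cells split by S100a6 and Fcer2a UMIs and in monocytes, for each of the 4 samples, with 95% Poisson intervals for counting error. The old samples lie highest among B cells with S100a6 and no Fcer2a, at 26.7 and 76.6 CPM.

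The Ctla4-positive B cells were deeper than the rest, with median UMIs of 4101.5, 5349, 5776 and 5379.5 against 2075, 2058, 2976 and 2758.5. Exactly 1 Ctla4 UMI was held by 15 of 16, 14 of 15, 211 of 249 and 152 of 232 of them, so that old 2 held the most cells with more. No doublet caller was run, so the part of doublets among these cells was not tested. The gate asked for 0 Cd3 UMIs, and of 4 other T cell markers tested between Ctla4-positive and Ctla4-negative B cells none was higher and Ms4a4b was lower.

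On sums per sample with the sample as a block, none of the 3 members other than Ctla4 was called between Ctla4-positive and Ctla4-negative B cells, beside 6.97% of 9887 genes (1589 genes at an unadjusted p below 0.05, and 184 called by DESeq2 with no other member among them). Tnfrsf18 gave 0.58 (SE 0.20, adjusted p = 0.0508). Of 14 B1 and age-associated B cell genes tested 8 were higher, such as S100a6 (1.28), Zbtb32 (1.05), Plscr1 (1.01) and Fcrl5 (0.86), and 2 were lower. Of 7 follicular genes 5 were lower, among them Fcer2a (-3.01), Cr2 (-2.46) and Ccr7 (-1.70). The coinhibitory receptor Lag3 (1.76), the cytokine Il10 (1.66) and Ebi3 (1.24), a subunit of interleukins 27 and 35, were higher.

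The 5 other genes with the largest rise were Ccna2 (3.78), Cdk1 (3.56), Pbk (3.37), Ociad2 (2.88) and Mxd3 (2.80), of which Ccna2 and Cdk1 drive the cell cycle. The 5 with the largest fall were Gm14964, Klre1 and Qrfp, at 0 UMIs in the Ctla4-positive cells (117, 125 and 98 UMIs in the negative cells), and Prg4 (-5.08) and Alox15 (-4.87), each with 2 UMIs there. Of the 219 Prg4 and 195 Alox15 UMIs in negative cells, 205 and 178 came from old 2. The rising genes were found in few cells, Ccna2 in 9 of 512 Ctla4-positive and 14 of 8202 negative cells and Ociad2 in 17 and 25. Monocyte genes (5 of 6) and red cell genes (5 of 5) were lower in Ctla4-positive cells. Of Ctla4-positive B cells 62.5%, 66.7%, 95.2% and 84.5% held an S100a6 UMI, against 23.5%, 19.0%, 75.9% and 48.5% of the negative cells.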

How the data were processed

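Blood of 4 young and 4 old mice was pooled in pairs, depleted of red cells and profiled with 10x Chromium 3′ libraries. Per the labels and methods, the authors ran Cell Ranger against mm10, combined both libraries of an age and used Seurat 2.3.0 to drop cells by genes detected and mitochondrial reads. The deposited values are raw UMI counts per gene and cell and were used as such. Each cell's sample came from the list of cells deposited with the counts. The 4 samples held 11578490, 11022561, 18658072 and 9521253 UMIs in 3902, 3857, 4642 and 2187 cells. Whether combining equalised depth, the annotation release and the strand of counting: not given in the sources used here. Replicates are pools, and p-values measure the spread between pools.

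UMIs were summed per sample and gate. A gene was tested if it had at least 20 UMIs over the sums and a mean of at least 2 CPM. Tests used edgeR 4.0.16 (quasi-likelihood, TMM, Benjamini-Hochberg adjustment over all genes tested, threshold 0.05) in R 4.3.3 with limma 3.58.1, and the sample was a block where both sums came from 1 sample. DESeq2 1.42.0, other size factors, filters and gates, thinning to 1000 UMIs, cells without the deepest and leaving out each sample were alternatives. Intervals (95%, exact binomial or Poisson) and the 3 counts that a count of 0 allows cover counting error only. No doublet caller was run. Sums, shares and figures used pandas 2.3.3 and numpy 2.4.6 under Python 3.11.15, with scipy 1.17.1 for intervals and matplotlib 3.10.9 for plots. The fits were checked on simulated counts. In those of the B cell comparison (9764 genes), 54.6% of 2-fold and 86.5% of 4-fold changes were recovered, and in those of Foxp3-positive T cells without Cd8 (8084 genes) 4.08% and 29.2%.

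The members, lists and comparisons were chosen with earlier results of these data known. Named were all members, up to 4 called genes for each list and direction, by size of the log2 fold change, and for Foxp3-positive T cells and Ctla4-positive B cells the 5 leading other genes in each direction. The values of 1 listed gene are not reported here. The comparisons of B cells split by S100a6 and Fcer2a, the shares within Ikzf2-positive cells and the alternatives without Ppbp, Pf4, Csn2 or Adm cells, with the widest T gate and on T cells without Cd8 as a comparison of its own were chosen after the data had been seen. Gene positions came from GENCODE M21 on GRCm38, and promoter windows from RefSeq.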

Additional observations from a re-analysis of the deposited data

Results flagged for a closer look

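The age by lineage term asks whether old minus young differs between Cd4 and Cd8 T cells, and it passed the test (edgeR, adjusted p below 0.05) for Ikzf2, with a value of 2.10 on the log2 scale and an adjusted p of 0.0053. It was called under 7 of 15 alternatives, and the others are named with this result in the report.

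Over all 7669 genes, DESeq2 called the term for 0, and edgeR without the sample block called it for 1. Among genes of the lists, the main edgeR test also called it for Pdcd1 (5.25), Lag3 (5.02) and Igfbp4 (3.73). With a negative sign it was called for Satb1 (-1.85), Ly6c2 (-1.48) and Ccl5 (-1.44). It was called with a negative sign for the haemoglobin genes Hbb-bt (-1.36), Hba-a1 (-1.35), Hba-a2 (-1.32) and Hbb-bs (-0.98), whose red cell list summed to 17260, 72056, 53165 and 11263 CPM in Cd4 T cells. The part of red cell RNA in these terms was not tested. For Pdcd1 and Lag3, 1 sample held most UMIs in Cd8 T cells. Young 2 had 54 UMIs of Pdcd1 and 78 of Lag3, against 0 and 7 in young 1, 5 and 10 in old 1 and 2 and 5 in old 2.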

How the results depend on the processing

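The members called numbered 2 with age in Cd4 T cells, 0 in Cd8 T cells, 2 in B cells and 6 between Cd4 and Cd8 T cells. They numbered 1 in the age by lineage term, 0 in Foxp3-positive Cd4 T cells and 0 in Ctla4-positive B cells. Beside these counts, and those for T cells without Cd8 and for shares, 94 alternatives gave a count within 1.5 times. Pairs of 0 against 0 are among them. A further 21 alternatives gave fewer members and 11 gave more. With age in Cd4 T cells, DESeq2 called 0 and thinning called 1 (Tnfrsf4). A filter of a UMI in 10% of cells called 0 of 4, but it removed Ikzf2 and Tnfrsf4 before the test. In B cells, DESeq2, thinning, leaving out the deepest cells, the Adm cells or the Ppbp and Pf4 cells each called 1. The 10% filter called 3 of 3 between Cd4 and Cd8 T cells and left no member to test in B cells. The age by lineage term was called for 0 members by DESeq2, after thinning, without the deepest cells and without Ppbp or Pf4 cells. In Foxp3-positive Cd4 T cells, DESeq2-type size factors gave 1, which moved the median of all genes from -0.92 to -0.32, and both wider gates gave 6. In T cells without Cd8, DESeq2 called 3 of the members in Foxp3-positive cells. In Ctla4-positive B cells, size factors, no filter and a gate with up to 1 Cd3 UMI gave 1. The cause was not tested.

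Leaving out 1 sample at a time gave 0 to 2 members with age in Cd4 T cells, 0 to 1 in Cd8 T cells, 0 to 3 in B cells and 5 to 6 between the gates. It gave 0 to 1 for the age by lineage term, 0 in Foxp3-positive Cd4 T cells, 0 to 1 in Ctla4-positive B cells, 2 to 4 with age and 4 to 6 with Foxp3 in T cells without Cd8, and 7 to 8 thinned shares apart. A sample left alone in its age was assumed to vary like the others. The 7 to 8 thinned shares apart set 1 sample against 2, where shares lie apart more easily than with 2 against 2. The share over all genes was not counted for these runs. No called value of a single member changed sign under the alternatives run.

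Replicate numbers do not tie young to old samples in the labels, and the deviations of same-numbered samples correlated at -0.068 in Cd4 T cells, -0.035 in Cd8 T cells and 0.137 in B cells. With the replicate number as a block, 2, 0 and 2 members were called with age in these gates. Without the sample block, 4 members were called between Cd4 and Cd8 T cells, 0 in the age by lineage term, 2 in Foxp3-positive Cd4 T cells and 0 in Ctla4-positive B cells. The small number of old T cells (36 and 25 Cd4 T cells) limits every age comparison in T cells.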

Other observations

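Of 5 ligand genes of the members tested in B cells, 1 rose and 1 fell with age and 3 did not pass the test. Cd80, which encodes a ligand of Cd28 and Ctla4, stood at 3.05 and 1.87 CPM in young and 13.8 and 10.0 CPM in old B cells, and its log2 fold change of 2.36 passed the edgeR test. Icosl, the ligand of Icos, stood at 65.0 and 67.8 CPM in young and 20.4 and 19.0 CPM in old B cells and fell by 1.67 on the log2 scale. Icosl was also lower in Ctla4-positive than in Ctla4-negative B cells (-2.59). Il10 had 0 and 1 UMIs in young and 97 and 42 UMIs in old B cells. Ebi3 (1.77) and Prdm1 (1.77), a transcription factor of plasma cell differentiation, rose with age in B cells as well, and Ltb (-0.70) and Tgfb1 (-0.60) fell. Of 4 T cell markers tested with age in B cells, none was higher and Thy1 and Ms4a4b were lower. The part of T cell RNA in the Ctla4 result was not tested.

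In T cells without Cd8, 5 of the 13 other regulatory T cell genes tested rose with age, among them Lag3 (3.75), Klrg1 (2.47), Nrp1 (1.33) and Capg (1.31). Of 20 other costimulatory and coinhibitory receptors tested, Lag3 and Pdcd1 (2.53) rose and Cd160 (-2.21) and Cd27 (-0.60) fell. Of the 9 interleukin 2 genes, Cish (1.85) and Socs1 (0.96), both inhibitors of cytokine signaling, rose.

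In Cd8 T cells, Tnfrsf9 (4-1BB, a costimulatory receptor) was found almost wholly in young 2, with 64 UMIs in 19 cells against 1, 3 and 0 UMIs in young 1, old 1 and old 2. In the same sample 20 Cd8 T cells held Pdcd1 and 23 held Lag3, and 11 held UMIs of all 3 genes. The highest counts in 1 cell were 12 UMIs of Tnfrsf9, 13 of Pdcd1 and 9 of Lag3. These genes were chosen after their values had been seen.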
